A study of Mus musculus with 6 samples.

Results

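Voltage-gated and related potassium, calcium and sodium channel genes were followed in mouse cortical progenitors sorted in S phase. A gene was taken when the accession of a non-control probe matched a RefSeq symbol that starts with Kcn, Cacn or Scn and a digit. The array held 132 such genes on 181 probes, of 19988 named genes and 55681 probes in all. Tis21-GFP positive cells were compared with Tis21-GFP negative cells, with 3 arrays in each group. Both groups came from the dorsal telencephalon of C57BL/6J embryos at embryonic day 14.5 that carried 1 Tis21-GFP knock-in allele, so the negative cells have the allele too. Each array held pooled cells, about 200000 from 30 hemispheres of 15 embryos, and Tis21-GFP expression marks progenitors that have turned to neuron production. Btg2, the locus of the reporter, was higher in positive cells: 1.32, 1.84 and 1.67 on the scaled log2 scale in positive cells and 0.67, 0.91 and 0.94 in negative cells (difference 0.77 ± 0.17, SE, n = 3 arrays a group, limma adjusted p = 0.0139). Eomes, the defining factor of intermediate progenitors, differed by 3.42 ± 0.24. The authors ran 4 experiments, each from at least 3 pregnant mice, and kept the 3 they judged best.

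Potassium channels set the resting potential and end action potentials. Voltage-gated calcium and sodium channels turn depolarisation into calcium entry and into the action potential upstroke. Each channel is built from a pore subunit, and many carry accessory subunits that set trafficking and gating. Cortical progenitors do not fire trains of action potentials. Radial glia hold a strongly negative resting potential through potassium conductance, and excitability is acquired as neurons mature.

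Promoter windows are shown for 6 channel genes on which the results below turn: the Kcnd and Cacna2d pairs, whose members passed in opposite directions, the voltage-gated potassium channel gene Kcnh5 and the inward rectifier gene Kcnj10. The call of Cacna2d3 was lost in 7 of the 15 other processing settings that tested it. Each window is the 250 bases before the annotated start, 5′ to 3′ on the gene's strand, from RefSeq on GRCm38.p6. Capitals mark the hexamer CANNTG, the E-box core that basic helix-loop-helix factors such as the proneural proteins bind.
Kcnd3, higher in positive cells, chr3:105451640-105451889, plus strand: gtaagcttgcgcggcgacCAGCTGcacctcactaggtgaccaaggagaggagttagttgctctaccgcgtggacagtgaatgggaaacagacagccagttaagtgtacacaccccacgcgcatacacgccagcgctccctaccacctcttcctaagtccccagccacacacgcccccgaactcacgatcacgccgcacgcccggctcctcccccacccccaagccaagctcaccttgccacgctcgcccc
Kcnd2, lower in positive cells, chr6:21215096-21215345, plus strand: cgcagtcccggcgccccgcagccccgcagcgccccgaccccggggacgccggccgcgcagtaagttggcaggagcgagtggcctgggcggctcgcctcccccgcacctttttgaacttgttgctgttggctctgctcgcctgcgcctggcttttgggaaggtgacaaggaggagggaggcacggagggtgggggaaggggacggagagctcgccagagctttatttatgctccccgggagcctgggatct
Cacna2d1, higher in positive cells, chr5:15934441-15934690, plus strand: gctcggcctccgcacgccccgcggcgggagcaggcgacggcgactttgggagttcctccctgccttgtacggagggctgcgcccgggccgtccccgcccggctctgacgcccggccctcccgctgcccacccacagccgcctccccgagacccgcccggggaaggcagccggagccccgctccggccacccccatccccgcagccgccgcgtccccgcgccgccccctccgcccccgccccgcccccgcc
Cacna2d3, lower in positive cells, chr14:29721865-29722114, minus strand: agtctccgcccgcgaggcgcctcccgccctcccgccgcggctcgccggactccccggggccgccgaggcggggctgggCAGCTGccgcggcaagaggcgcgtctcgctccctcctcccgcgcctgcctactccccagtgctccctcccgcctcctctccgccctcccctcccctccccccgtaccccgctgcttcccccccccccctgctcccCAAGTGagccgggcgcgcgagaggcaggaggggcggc
Kcnh5, higher in positive cells, chr12:75177333-75177582, minus strand: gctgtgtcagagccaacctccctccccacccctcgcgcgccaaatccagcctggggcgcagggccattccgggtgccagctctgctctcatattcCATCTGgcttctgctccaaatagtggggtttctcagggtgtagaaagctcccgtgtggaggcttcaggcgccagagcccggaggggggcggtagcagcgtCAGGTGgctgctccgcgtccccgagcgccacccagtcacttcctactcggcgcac
Kcnj10, lower in positive cells, chr1:172340960-172341209, plus strand: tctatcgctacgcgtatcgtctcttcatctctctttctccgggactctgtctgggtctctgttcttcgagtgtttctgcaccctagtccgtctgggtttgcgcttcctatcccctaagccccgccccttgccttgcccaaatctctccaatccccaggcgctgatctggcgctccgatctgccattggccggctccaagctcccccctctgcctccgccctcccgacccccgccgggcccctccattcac
Kcnd3 had 1 such hexamer, Kcnh5 had 2 and Cacna2d3 had 2, and none was found in these windows of Kcnd2, Cacna2d1 and Kcnj10. RefSeq windows were matched for 98 of the 132 channel genes. The form CAGCTG, counted on both strands and contained in CANNTG, was found in windows of 4 of 8 matched genes that were higher in positive cells (Cacna1s, Kcnc2, Kcnd3 and Kcne1l) and of 3 of 10 that were lower (Cacna2d3, Cacng2 and Scn11a). Among all tested genes with a window the share was 14.1%, and over all channel genes it was 27.6%. It was 17.6% of the channel genes not called and 30.4% of those not tested. The 8 higher genes had 12 windows and the 10 lower genes had 10, and a gene with more windows had more room for a match. The form CAGATG, or CATCTG on the other strand, was found in 2 of those 8 genes, Cacna1s and Kcnh5, and in 0 of those 10, against 12.3% of all tested genes, 17.3% of all channel genes and 26.5% of the channel genes that were not called. These counts are descriptions of letters in short windows, without a test.

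Many of the channel genes were not detectable. Between 65 and 76 of them had a probe well above background on a positive array, and between 76 and 83 on a negative array. Testing required a probe that exceeded background clearly in every array of either group, which 75 genes met and 57 did not. Of the 57, 42 had every probe at background on all 6 arrays. Among the tested genes, 56 were above background on all 6 arrays, 5 on all 3 positive arrays but fewer negative ones, and 14 on all 3 negative arrays but fewer positive ones. The last 19 passed the filter through 1 group, so a difference was built into their selection, and their p-values are not separate support. Among them, Cacna1s, Kcnb2, Kcnc2 and Cacng5 passed through the positive arrays. Cacna2d3, Cacng2, Kcnh7, Kcnj14, Kcnk6, Kcnma1, Kcnq3 and Scn11a passed through the negative arrays. Sodium channel beta subunits were the family without a tested member (0 of 3), and 10 of 15 inward rectifier genes were not tested either.

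**Figure D1:**
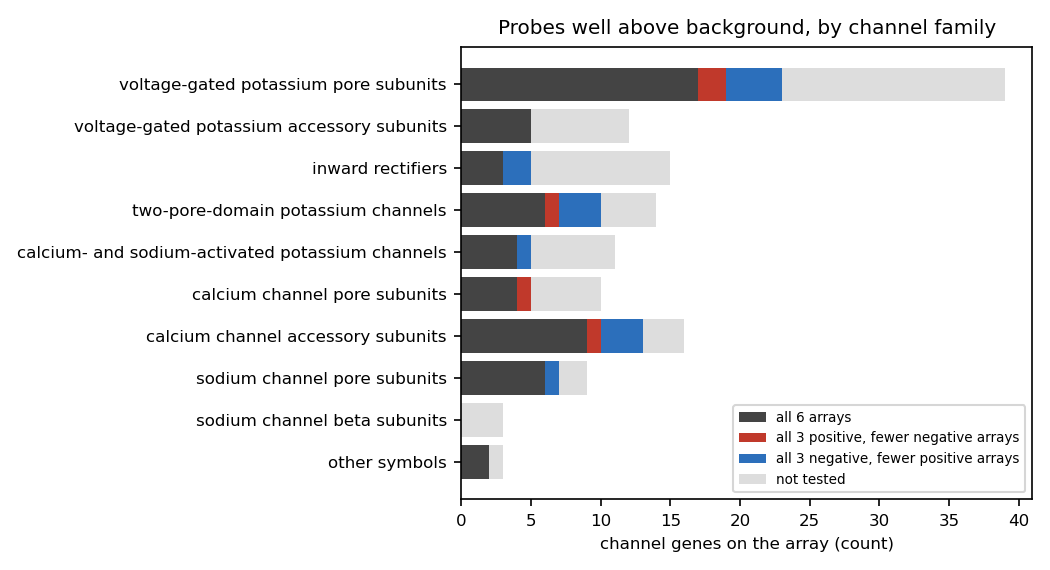
Number of channel genes per family (bar length, a count), split by the arrays on which the probe used was well above background. Dark grey is all 6 arrays, red all 3 Tis21-GFP positive but fewer negative arrays, blue all 3 negative but fewer positive arrays, and light grey not tested; the voltage-gated potassium pore subunits held 23 tested of 39 genes and the sodium channel beta subunits 0 of 3.

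In positive cells 11 of the 75 tested channel genes were higher, 20 were lower and 44 did not pass (limma, Benjamini-Hochberg adjusted p under 0.05 over 13118 genes). Across all tested genes 12.9% were higher and 13% lower, and 25.9% passed in either direction. The 3 positive and the 3 negative arrays did not overlap for 15 channel genes that were higher and 25 that were lower, against 28.2% and 18.6% of all tested genes. The median log2 difference of the channel genes was -0.11, against 0.12 for all tested genes. Over the other settings the channel median lay between -0.28 and -0.01, and that of all tested genes between -0.06 and 0.14. Without positive replicate 1 or 3 the channel median was -0.19 and -0.18, and without negative replicate 2 it was -0.21. Restricted to the 56 genes above background on all 6 arrays, 7 were higher and 12 lower, where 14.3% of all genes so restricted were higher and 11.2% lower. Scaling to the 75th percentile of the probes detected on all 6 arrays gave 8 higher and 24 lower channel genes, and the whole array tipped the same way, with 7.07% higher and 17.3% lower. With normexp background, which adds an offset and draws dim probes together, 11 were higher and 12 lower, against 12.8% and 10.5% of all genes. Leaving out negative replicate 3 gave 7 higher channel genes, where 6.03% of all genes were higher. Family medians rest on few genes and moved with the setting. They ran from -0.28 to 0.11 for voltage-gated potassium pore subunits (0.11 without positive replicate 2), from -0.38 to 0.04 for K2P channels (0.04 with normexp, -0.07 without negative replicate 3 and -0.34 without negative replicate 2) and from -1.05 to -0.11 for inward rectifiers. Those of the voltage-gated potassium accessory, calcium pore, calcium accessory and sodium pore subunits took either sign.

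**Figure D2:**
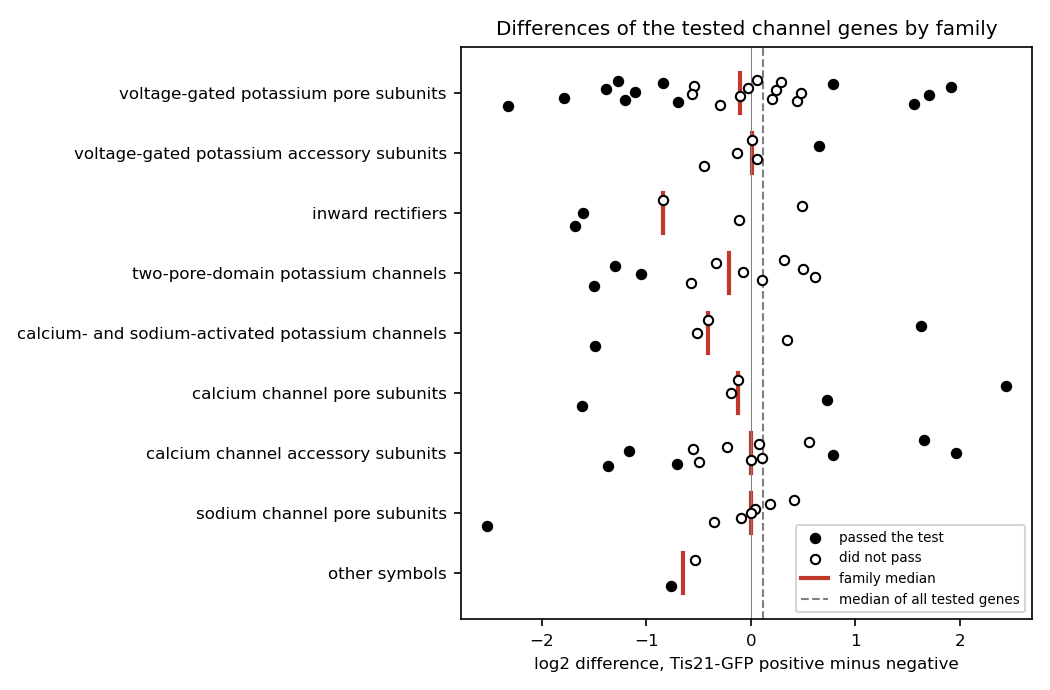
Log2 difference, Tis21-GFP positive minus negative, of each of the 75 tested channel genes (points), by family from top to bottom. Filled points passed the test, red bars are family medians and the dashed line is the median of all tested genes at 0.12; the inward rectifier median of -0.84 is that of Kcnj4, which was above background on 2 positive and 3 negative arrays, and it was -0.11 with signal required on all 6 arrays.

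Markers of other cells moved with the same comparison. Of 11 tested markers of microglia and macrophages, 10 were lower in positive cells and 0 higher, and their summed signal (in units of the array's 75th percentile) lay between 24 and 29.7 on positive arrays and between 42.6 and 48 on negative arrays. Itgam, which did not pass, made up 19.7 to 24 of these units on positive and 25.2 to 33.6 on negative arrays, and the other 10 markers summed to between 4.29 and 7.85 on positive and between 14.4 and 18.8 on negative arrays. All 6 tested meningeal and mesenchymal markers were lower, with sums between 0.602 and 0.835 on positive and between 4 and 8.2 on negative arrays. Of 8 endothelial and pericyte markers, 5 were lower and 0 higher, and Pdgfrb, Rgs5 and Cspg4 were at background on every positive array. The sums of that list lay between 9.57 and 10.6 on positive arrays and between 8.51 and 9.49 on negative arrays. Most of this was Kdr, which did not pass (0.45, adjusted p = 0.0531), and the other 7 markers summed to between 0.401 and 0.671 on positive and between 1.68 and 2.58 on negative arrays. Of 12 radial glia markers, 11 were lower (sums 158 to 211 on positive and 380 to 434 on negative arrays), and all 12 intermediate progenitor markers were higher (362 to 408 on positive and 53.6 to 78.8 on negative arrays). Postmitotic neuron markers were split, with 5 of 15 higher and 6 lower (179 to 217 on positive and 127 to 170 on negative arrays). The higher ones were Rbfox3 (2.15), Neurod6 (2.03), Dcx (1.02), Tbr1 (0.83) and Tubb3 (0.82). The lower ones were Syt1 (-1.60), Mapt (-1.60), Stmn2 (-1.56), Nefl (-1.28), Nefm (-0.82) and Gap43 (-0.63). Of the smaller lists, 1 of 4 Cajal-Retzius markers was higher, 1 of 6 interneuron and 2 of 4 erythroid markers were lower, and 0 of 2 oligodendrocyte markers passed. Over all tested genes 25.9% passed in either direction, and lists this short hold too few genes to set against that share. The part of these cells in the channel differences was not tested. In sorted bulk samples, fewer cells of a type and less RNA per cell cannot be told apart.

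The voltage-gated potassium pore subunits, the largest family, went both ways. Of 23 tested genes, 4 were higher and 8 lower, with a median of -0.10. The shares over all tested genes were 12.9% higher and 13% lower. Kcnh5, of the ether-a-go-go group, had scaled log2 signals of -1.25, -1.28 and -1.30 in positive cells, against -3.12, -3.08 and -3.39 in negative cells. The replicates lay close together, and the log2 difference was 1.92 ± 0.14 (SE, n = 3 a group, limma adjusted p = 0.000188). Kcnb2, a delayed rectifier subunit, had -1.42, -2.38 and -1.61 in positive cells, against -3.98, -2.98 and -3.14 in negative cells, where 2 of 3 arrays were above background. The groups did not overlap, and the difference was 1.57 ± 0.32 (adjusted p = 0.0106). Kcnb2 passed the filter through the positive arrays. Kcnd3, which carries the A-type current that inactivates quickly, had 2.46, 2.87 and 2.47 in positive cells and 1.76, 1.84 and 1.83 in negative cells, a difference of 0.79 ± 0.15 (adjusted p = 0.00771). With normexp background the differences of Kcnh5 and Kcnb2 were 1.13 and 0.68, and both passed. Kcnc2, whose channels let neurons fire fast, was above background on all 3 positive arrays (-3.61, -3.36 and -3.64) and on no negative array (-4.38, -6.57 and -4.78), so that it was at least 1.62-fold higher. Its call was the least firm of these 4, at an adjusted p of 0.0385, and Kcnc2 passed the filter through the positive arrays. The call was lost without positive replicate 1 (1.75), 2 (1.62) or 3 (1.76) and without negative replicate 3 (1.94). Scaling to the probes detected on all 6 arrays (1.53), median centring (1.65) and testing without the filter on dim probes (1.71) lost it too.

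The largest of the negative differences in this family was that of Kcna1, a low-threshold delayed rectifier of axons. It had -1.61, -1.63 and -2.23 in positive cells, against 0.76, 0.25 and 0.50 in negative cells, a log2 difference of -2.33 ± 0.21 (limma adjusted p = 0.000342). The gap between the groups was wider than the spread within either. Kcna6, of the same group and next to Kcna1 on the chromosome, had -1.70, -2.25 and -3.40 in positive cells and -0.09, -0.77 and -1.14 in negative cells. Its difference was -1.79 ± 0.43 with an adjusted p of 0.0201 (-0.84 with normexp). Kcna6 did not pass without negative replicate 1 (-1.50) or 2 (-1.84), or without the filter on dim probes. Kcna5, which neighbours Kcna1 on the other side, had a difference of 0.06 ± 0.25. Kcna4, an A-type subunit, had 3.97, 3.31 and 3.78 in positive cells and 3.17, 3.36 and 3.09 in negative cells, groups that overlapped (0.48 ± 0.19, adjusted p = 0.0998). It passed without positive replicate 2, at 0.67, and with a variance trend and robust fit.

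Kcnq3, which encodes a subunit of the M-current channel that restrains repetitive firing, was lower. It had -3.50, -3.75 and -4.16 in positive cells, against -1.91, -2.59 and -2.74 in negative cells (-1.39 ± 0.26, limma adjusted p = 0.00634). Kcnq3 was above background on 2 of 3 positive arrays, so it passed the filter through the negative arrays. With normexp its difference was -0.46.

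**Figure D3:**
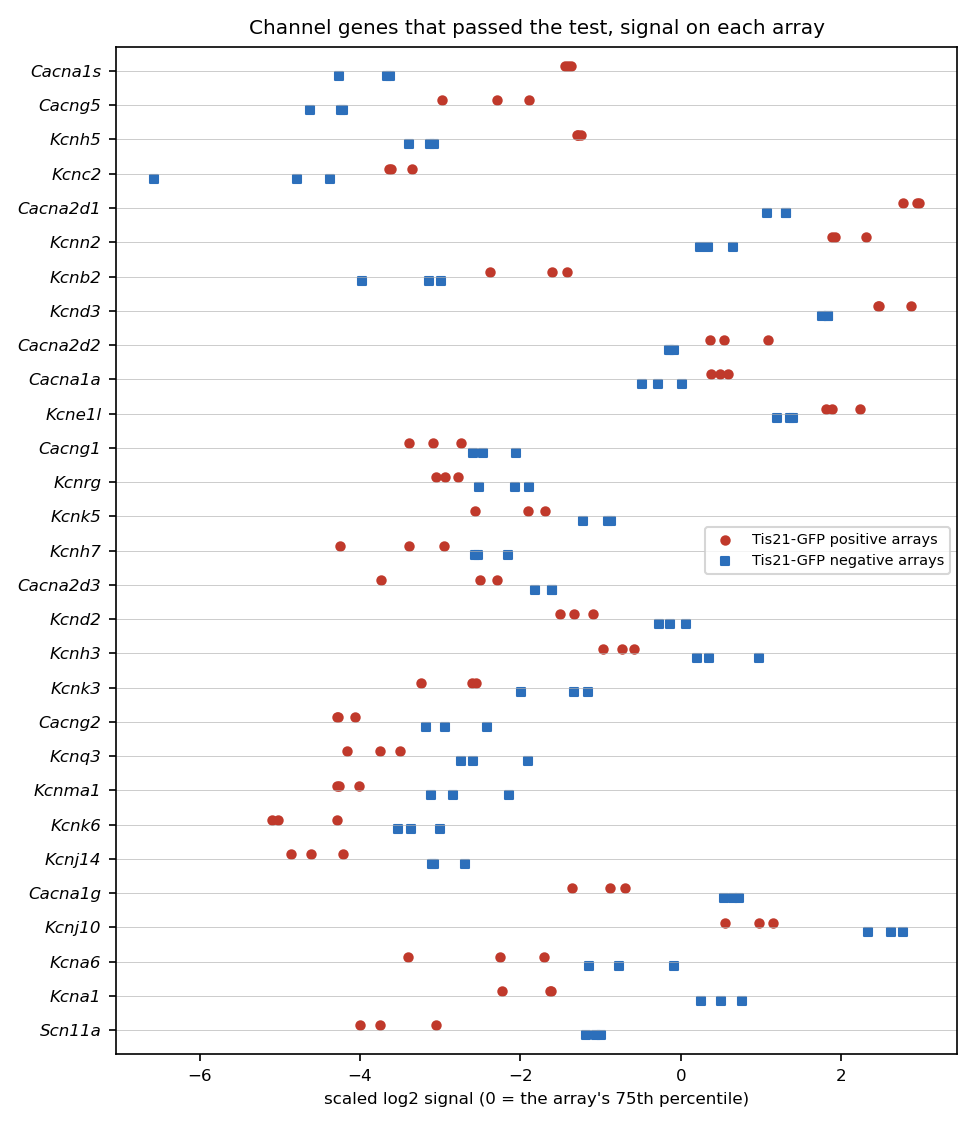
Scaled log2 signal (0 is the array's 75th percentile) of 29 of the 31 channel genes that passed the test, one gene a row, with 3 Tis21-GFP positive arrays as red circles and 3 negative arrays as blue squares. Cacna1s at the top has the largest positive difference, 2.45, and Scn11a at the bottom the largest negative one, -2.52. Both passed the filter through 1 group only. Positions in different rows come from different probes and do not rank genes.

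Within groups of genes that share a symbol prefix, which need not be close relatives, members passed in opposite directions. In the Kcnd group, Kcnd2 had -1.10, -1.51 and -1.33 in positive cells and 0.07, -0.13 and -0.27 in negative cells, a difference of -1.20 ± 0.16 beside 0.79 for Kcnd3. Kcnd1, the remaining member, stood at 0.24 ± 0.16 and did not pass. In the Kcnh group, Kcnh3 had -0.59, -0.74 and -0.97 in positive cells and 0.98, 0.20 and 0.35 in negative cells (-1.27 ± 0.22), beside 1.92 for Kcnh5. Kcnh7 was lower too, at -1.11 ± 0.31 (adjusted p = 0.0326), with 2 of 3 positive arrays above background. It passed the filter through the negative arrays. Kcnh7 did not pass with normexp (-0.28), or without positive replicate 1 (-1.18) or negative replicate 1 (-1.19), 2 (-1.17) or 3 (-0.98). Without the filter on dim probes it did not pass either. Each of the 5 called genes here kept its direction in every alternative that tested it.

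**Figure D4:**
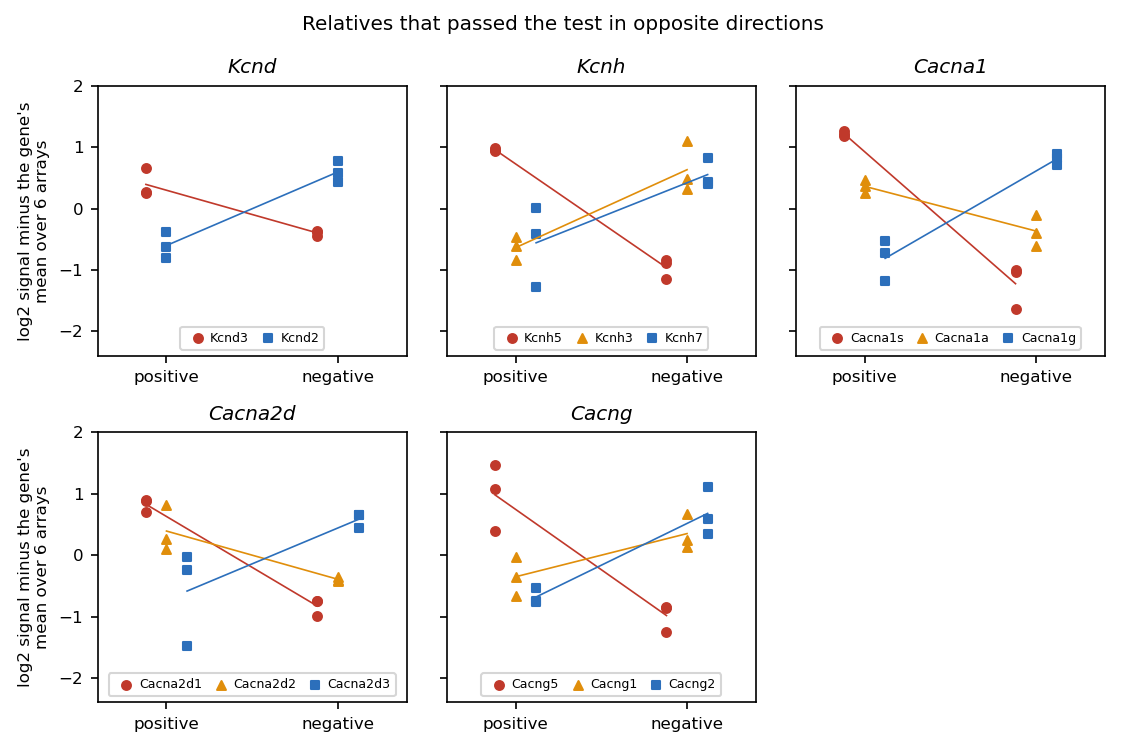
Log2 signal minus the gene's own mean over 6 arrays, with the 3 Tis21-GFP positive arrays at the left and the 3 negative arrays at the right of each panel, and lines joining the group means. Each panel is 1 gene group in which members passed in opposite directions; Kcnd3 is higher by 0.79 and Kcnd2 lower at -1.20.

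Among accessory subunits of the voltage-gated potassium channels, 1 of 5 tested genes was higher and 0 lower, and the median was 0.02. Of all tested genes 12.9% were higher and 13% lower. Kcne1l, a single-pass regulatory subunit gene of the Kcne group, had 2.23, 1.81 and 1.88 in positive cells and 1.36, 1.4 and 1.19 in negative cells, a difference of 0.65 ± 0.16 (limma adjusted p = 0.0186). Its call was lost without positive replicate 1 (0.53), negative replicate 1 (0.68) or negative replicate 3 (0.59), and with scaling to the probes detected on all 6 arrays (0.48). It was also lost without the filter on dim probes. The second Kcne1l probe gave 0.49 and did not pass (limma adjusted p = 0.0726 over probes). Kcnip3, a calcium sensor that binds Kcnd channels and also acts as a transcriptional repressor, had 3.25, 3.22 and 3.18 in positive cells and 3.19, 3.48 and 2.93 in negative cells. The difference was 0.02 ± 0.16, and its sign changed in 7 of 16 alternatives.

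Inward rectifiers pass potassium near the resting potential. Of 5 tested genes 2 were lower and 0 higher, against 13% and 12.9% of all tested genes. Kcnj10, the inward rectifier of astroglia that clears extracellular potassium, had 1.15, 0.55 and 0.97 in positive cells, against 2.62, 2.33 and 2.78 in negative cells. All positive arrays lay more than 1 log2 unit below all negative arrays, and the difference was -1.68 ± 0.20 (limma adjusted p = 0.000822), kept at an adjusted p of 0.00555 or less in all 16 alternatives. Kcnj14 was at background on every positive array (-4.21, -4.61 and -4.85), against -3.10, -3.07 and -2.69 in negative cells, so that it was at least 2.19-fold lower. It did not pass with normexp (-0.34). Kcnj8, the pore of the pericyte potassium channel that closes on ATP, was not tested: it was above background on 0 positive and 2 negative arrays. When all genes were tested without a filter on dim probes, Kcnj8 was lower at -2.0 ± 0.29 (adjusted p = 0.00695). Abcc9, which encodes its sulphonylurea receptor partner, was above background on 0 positive and 3 negative arrays and was at least 3.84-fold lower (fitted difference -3.49, or -0.79 with normexp). Both are known in pericytes; Pdgfrb, Rgs5 and Cspg4 were at background on the same positive arrays, and the part of pericytes in these values was not tested.

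K2P channels, which carry the potassium leak, were lower in 3 of 10 tested genes and higher in 0, with a median of -0.20. Of all tested genes 13% were lower and 12.9% higher. Kcnk3, an acid-sensitive leak channel, had -2.56, -3.24 and -2.60 in positive cells and -1.34, -2.0 and -1.15 in negative cells, a difference of -1.30 ± 0.27 (limma adjusted p = 0.0101), or -0.54 with normexp. Kcnk5, an alkaline-activated member named here after its values were seen, had a difference of -1.05 ± 0.23, and it did not pass without negative replicate 1 (-1.01) or 2 (-0.99). Kcnk6 was at background on all positive arrays (-5.02, -5.09 and -4.28) and above it on all negative arrays (-3.00, -3.53 and -3.36), so that it was at least 1.73-fold lower, and its call was lost with normexp (-0.28). Kcnk10, a stretch-sensitive member, had 2.37, 2.32 and 2.36 in positive cells and 2.55, 2.51 and 3.00 in negative cells. These groups did not overlap, yet the difference of -0.33 ± 0.16 did not pass (adjusted p = 0.159). Kcnk2, the close relative of Kcnk10, was at background on all 6 arrays.

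Among potassium channels opened by calcium or sodium, Kcnn2 and Kcnma1 went apart. Kcnn2, the small-conductance channel of the afterhyperpolarisation, had 1.92, 2.30 and 1.88 in positive cells, against 0.65, 0.23 and 0.34 in negative cells (1.63 ± 0.17, limma adjusted p = 0.000608). Kcnma1, the large-conductance channel, was at background on all 3 positive arrays (-4.01, -4.26 and -4.28) and had -2.14, -3.12 and -2.84 in negative cells, so that it was at least 2.51-fold lower. The Kcnma1 call was lost with normexp (-0.26). The other 3 tested genes of the family did not pass, and Kcnmb4, an accessory subunit of the large-conductance channel, had differences of 0.34 and 0.76 on its 2 probes. The Kcnmb4 probe at 0.76, not the one used, passed (limma adjusted p = 0.0482 over probes). Kcnrg, which encodes a suppressor of voltage-gated potassium channels, had -2.94, -2.78 and -3.06 in positive cells and -2.07, -1.90 and -2.52 in negative cells (-0.76 ± 0.19, adjusted p = 0.0203). The Kcnrg call was lost under quantile normalization (-0.61), in the authors' values (-0.61) and under normexp (-0.22), and without positive replicate 1 (-0.75) or negative replicate 1 (-0.71) or 2 (-0.63). It was also lost without the filter on dim probes. Kcnq1ot1, a noncoding RNA that the symbol rule takes with the channels, had 0.74, 0.46 and 1.06 in positive cells and 1.45, 1.1 and 1.32 in negative cells. Its difference of -0.54 ± 0.18 missed the threshold (adjusted p = 0.0659). The replicate block left the difference as it was and brought the adjusted p to 0.0381. Kcnq1ot1 also passed without positive replicate 3 (-0.69), with scaling to the probes detected on all 6 arrays (-0.71), with normexp (-0.52) and with a variance trend and robust fit, and its second probe stood at 0.13.

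Calcium channel pore subunits were tested for 5 of 10 genes. Of these 5, 2 were higher and 1 lower, against 12.9% and 13% of all tested genes. Cacna1s, best known as the L-type channel and voltage sensor of skeletal muscle, had -1.41, -1.45 and -1.37 in positive cells, against -4.27, -3.66 and -3.63 in negative cells, where 2 of 3 arrays were above background. The 3 positive arrays lay within 0.1 of each other, and the difference was 2.45 ± 0.19 (limma adjusted p = 0.000214). With normexp it was 1.15. Cacna1s passed the filter through the positive arrays, so a difference was built into its selection. Cacna1a, the P/Q-type channel of presynaptic terminals, had 0.37, 0.59 and 0.49 in positive cells and 0.02, -0.49 and -0.28 in negative cells, a difference of 0.73 ± 0.16 (adjusted p = 0.0146). It did not pass without negative replicate 3 (0.71) or with scaling to the probes detected on all 6 arrays (0.55). The second Cacna1a probe gave 0.63 and did not pass (limma adjusted p = 0.0501 over probes). Cacna1g, a T-type channel that opens near rest, had -0.70, -1.36 and -0.89 in positive cells, against 0.72, 0.54 and 0.65 in negative cells (-1.62 ± 0.19). Both Cacna1g probes were lower, at -1.62 and -1.72. Cacna1h, another T-type gene, had 0.98, 1.02 and 0.72 in positive cells and 1.49, 0.89 and 0.88 in negative cells, groups that overlapped (-0.18 ± 0.20). Of the L-type genes of brain, Cacna1c was at background on all 6 arrays and Cacna1d was above it on 2 positive and 2 negative arrays, so neither was tested.

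Accessory subunits of calcium channels were split evenly, with 3 higher and 3 lower of 13 tested genes and a median of 0.00. The shares over all tested genes were 12.9% higher and 13% lower. Cacna2d1, the alpha-2-delta subunit that binds gabapentin, had 2.77, 2.97 and 2.94 in positive cells, against 1.31, 1.07 and 1.31 in negative cells (1.66 ± 0.14, limma adjusted p = 0.000256). Its second probe gave 1.13. Cacna2d2 had 0.37, 1.08 and 0.53 in positive cells and -0.09, -0.14 and -0.15 in negative cells (0.79 ± 0.19, adjusted p = 0.0209). It did not pass without negative replicate 1 (0.81), 2 (0.78) or 3 (0.78), or without the filter on dim probes. Cacna2d3 had -2.50, -2.29 and -3.74 in positive cells and -1.60, -1.82 and -1.60 in negative cells (-1.17 ± 0.35, adjusted p = 0.0409). Of its 3 positive arrays, 2 were above background, so it passed the filter through the negative arrays. The call for Cacna2d3 was lost with quantile normalization (-1.05), the authors' values (-1.05) and normexp (-0.29), and without negative replicate 1 (-1.13), 2 (-1.24) or 3 (-1.13). It was also lost without the filter on dim probes. The beta subunits, which bring the pore to the membrane, had 0 calls among 4 tested genes, where 25.9% of all tested genes passed. Cacnb3, one of them, had 1.88, 1.93 and 1.41 in positive cells and 1.86, 1.71 and 1.64 in negative cells.

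The gamma subunits include partners of AMPA-type glutamate receptors. Cacng5, of that kind, had -2.30, -2.98 and -1.90 in positive cells and was at background on all negative arrays (-4.22, -4.62 and -4.24). It was thus at least 3.59-fold higher (limma adjusted p = 0.00163, fitted difference with normexp 0.65). Cacng5 passed the filter through the positive arrays, so this p-value is not separate support for the difference. Cacng2, which encodes stargazin and brings AMPA receptors to synapses, had -4.27, -4.07 and -4.29 in positive cells, with 1 array above background, against -2.42, -2.94 and -3.18 in negative cells. The difference was -1.36 ± 0.20 (adjusted p = 0.00244), and with normexp it was -0.31 and did not pass. Cacng2 passed the filter through the negative arrays. Cacng1, a subunit of the muscle channel that was named after its value was seen, had a difference of -0.70 ± 0.21 (adjusted p = 0.0433). Its call was lost in 10 of 16 alternatives, among them without positive replicate 2 (-0.54) or 3 (-0.70) and without negative replicate 1 (-0.55), 2 (-0.81) or 3 (-0.75). Cacng1, Cacng4 and Cacng5 follow each other on mouse chromosome 11, and within that run Cacng1 was lower, Cacng4 did not pass (-0.50 ± 0.19) and Cacng5 was higher.

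Of the sodium channel pore subunits 1 of 7 tested genes was lower and 0 were higher, with a median of 0.00. Across all tested genes 13% were lower and 12.9% higher, so the lower count was near the share of all genes. Scn11a, known as the persistent sodium channel of pain-sensing neurons, had -3.06, -3.75 and -4.00 in positive cells, against -1.18, -1.0 and -1.06 in negative cells. The negative arrays lay within 0.2 of each other, and the log2 difference was -2.52 ± 0.24 (limma adjusted p = 0.000359), -1.17 with normexp. Scn11a was above background on 2 of 3 positive arrays, so it passed the filter through the negative arrays. Scn8a, the channel of axon initial segments and nodes, had 3.79, 3.08 and 3.63 in positive cells and 2.97, 3.26 and 3.04 in negative cells, groups that overlapped (0.41 ± 0.20, adjusted p = 0.164). It passed without positive replicate 2, at 0.62. Scn3a, the main sodium channel of the embryonic brain, had -0.30, -0.41 and -0.48 in positive cells and -0.12, -0.46 and -0.75 in negative cells, a difference of 0.04 ± 0.18 whose sign changed in 4 of 16 alternatives. Scn2a, of immature axons, had -2.84, -2.89 and -2.83 in positive cells and -2.57, -2.43 and -2.51 in negative cells. Its difference of -0.35 ± 0.12 did not pass (adjusted p = 0.0673). Its second probe, above background on 2 of 3 positive arrays, stood at -1.54 and passed (limma adjusted p = 0.0439 over probes). Scn2a passed as the mean of both probes (-0.95), with median centring (-0.41) and with scaling to the probes detected on all 6 arrays (-0.53). Scn1a stood at 0.19 ± 0.18 and did not pass.

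Pumps, exchangers and channel partners outside the symbol rule were read from a list of 57 genes, 47 of them tested. Of these, 2 were higher and 12 lower, with a median of -0.27. Across all tested genes 12.9% were higher and 13% lower, with a median of 0.12. Atp2b2, a plasma membrane calcium pump, had 1.76, 1.87 and 1.70 in positive cells, against 0.22, 0.04 and -0.31 in negative cells (1.79 ± 0.17, limma adjusted p = 0.000349). Calm2, a calmodulin gene whose product is the calcium sensor of several of these channels, had 7.26, 7.38 and 7.36 in positive cells and 6.65, 6.69 and 6.64 in negative cells (0.67 ± 0.12). Stac, an adaptor of L-type calcium channels, had -2.79, -2.85 and -3.57 in positive cells and -0.74, -0.77 and -0.15 in negative cells (-2.51 ± 0.26, or -1.38 with normexp). Fgf12, which binds sodium channel tails, was at background on all positive arrays and at least 1.19-fold lower, and its call was lost with normexp (-0.08). The number of lower partners was 7 without negative replicate 1, where 9.07% of all genes were lower.

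**Figure D5:**
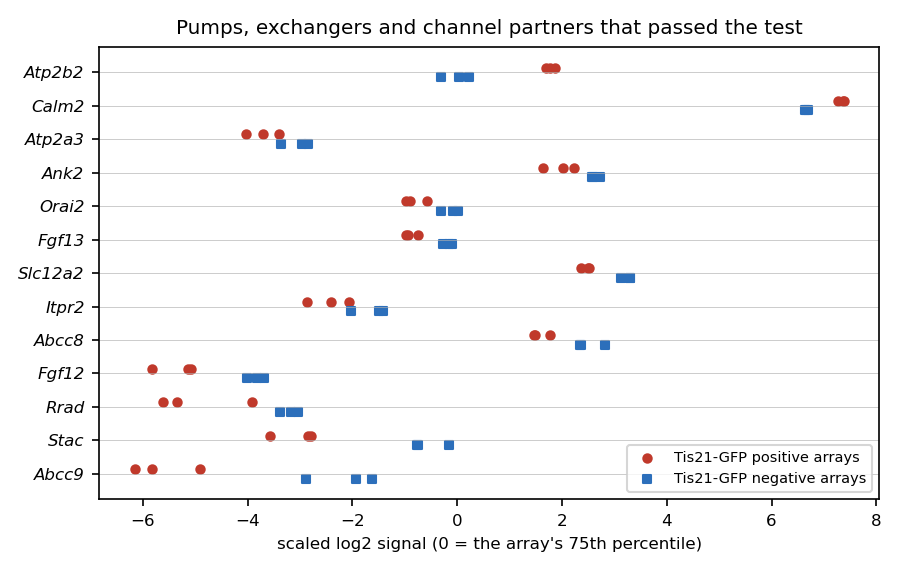
Scaled log2 signal (0 is the array's 75th percentile) of 13 of the 14 pump, exchanger and channel partner genes that passed the test, with 3 Tis21-GFP positive arrays as red circles and 3 negative arrays as blue squares. Atp2b2 and Calm2 at the top are higher in positive cells, by 1.79 and 0.67, and the other 11 are lower.

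Several probes of 1 gene were tested for 15 channel genes. For Kcnc1, Kcnj13 and Kcnq1ot1 the 2 probes differed in sign, with no gene called on the probe used (-0.10 and 0.21 for Kcnc1, -0.11 and 0.20 for Kcnj13). Kcna7 stood at 0.21 on the probe used and at 0.66 on the other, which passed (limma adjusted p = 0.0309 over probes). Cacna1i stood at -0.12 and -0.70, and neither probe passed. These genes, like Cacna2d3, Cacnb3, Cacng4, Kcna5, Kcnd1 and Kcnh7 above, were singled out after their values were seen.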

How the data were processed

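RNA from sorted S-phase cells was measured on 1-colour Agilent arrays. The deposited scanner files give spot intensity as extracted by Feature Extraction (10.7.1.1, per the submitters' processing notes); the processed-signal column was used, with no scaling across arrays by the authors found in it. A second deposited table holds the authors' log2 values (column medians of 4.67), which look quantile normalized and uncentred from the values alone; how they were made is not stated here. The replicates were independent experiments, per the labels' design text.

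Control and outlier-marked spots (118 to 191 an array) were left out, the log2 signals of repeated spots averaged, and each array's 75th percentile (213 to 341 intensity units) subtracted. Probes needed a value on all 6 arrays and were named by accession in RefSeq (26370 of 55681). The brightest tested probe stood for its gene. limma 3.58.1 (R 4.3.3) compared the groups without a block. The fit was also run on simulated arrays with known changes. These were drawn independently, so that run did not cover the pairing of arrays or the filter on dim probes. For a group at background throughout, the fold is a lower bound: its mean was replaced by one in which each array took the larger of the probe's signal and the dimmest signal called well above background. Same-numbered arrays deviated together (correlations across genes of 0.23, 0.13 and 0.37). The numbers were taken as pairs only in the alternative with a replicate block. The main fit, with every SE and adjusted p from it, left the pairing out. All arrays share 1 slide, no pair of files was identical, and the number of arrays limits the precision.

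Alternatives changed the scaling, background, filter, probe rule, block and variance model or left out 1 array; scaling, block and leave-one-out fits kept the same genes. Genes were named by rule: the called genes with the largest differences, the smallest p and brightest probe of each family, 17 textbook genes and up to 4 called partners a direction. Members, lists and tests were chosen with earlier results of these data known. A few genes that met the naming rule stay in the counts but are not reported here by name.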

Additional observations from a re-analysis of the deposited data

How the results depend on the processing

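Across 16 alternatives, 16 of the 31 called channel genes kept their call wherever they were tested, and all 31 kept their sign. Channel genes higher numbered 7 with signal required on all 6 arrays, and from 7 to 12 when 1 array was left out. Channel genes lower numbered 12 with normexp background, 11 of them shared with the 20, and 12 with signal required on all 6 arrays, where fewer genes are tested; they ran from 14 to 20 when 1 array was left out. Excitability partner genes higher ran from 2 to 3, and excitability partner genes lower from 7 to 13, when 1 array was left out. In those fits 6.03% to 13.3% of all genes were higher and 9.07% to 13.1% lower. With the replicate block, 14 channel genes were higher and 24 lower, including all 31 called without it, and no named gene other than Kcnq1ot1 changed its call. Of all genes, 15.4% were higher and 14.9% lower with the block. Without a filter on dim probes, 8 of 132 channel genes tested were higher and 16 lower, against 4.48% and 6.89% of all genes. Over all genes, the 1686 higher calls became 928 with scaling to the probes detected on all 6 arrays, 895 without the filter and 791 without negative replicate 3. The cause of these shifts was not tested. Signal over background also limits the results: 42 of the 57 channel genes not tested had every probe at background on all 6 arrays. Without the filter, 2 of the 57, Kcnj8 (-2.0) and Kcnv1 (-1.87, named after its value was seen), were called lower; both were above background on 0 positive and 2 negative arrays.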
